A study of Homo sapiens with 9 samples.

Results

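The genes described here are 34 that encode glucose carriers, the enzymes of glycolysis, the enzymes and carriers of lactate, and the enzymes of the pentose phosphate pathway. They were taken by gene symbol, first row of a symbol, from a table of 30000 rows of read counts, and all 34 were found in it. The libraries were made from THP-1, a human monocytic leukaemia line, in 3 groups of 3: control cells with no agent named, cells given ectosomes labelled scramble shRNA, and cells given ectosomes labelled PKM2_KD. Ectosomes are vesicles shed from the cell surface, and the title of the series says that they came from Huh7, a hepatoma line. The shRNA label was read as that of the ectosomes' donor cells, which the labels do not state outright. The dose, the time, a vehicle for the controls and the number of knockdown clones were not found in these labels. Levels are CPM, reads of a gene scaled to a common library size by trimmed means (TMM), and ± is the SD over n = 3 libraries. Whether replicates were separate cultures is not said in the labels, and the p-values therefore measure only how far these libraries spread, which can be technical spread.

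Glycolysis splits glucose into pyruvate in the cytosol, and lactate dehydrogenase can turn that pyruvate into lactate, which leaves the cell through monocarboxylate carriers. The first committed step, made by phosphofructokinase, is set by fructose-2,6-bisphosphate, which the PFKFB enzymes make and remove. The pentose phosphate pathway branches off at glucose-6-phosphate and yields NADPH and ribose-5-phosphate, with transketolase and transaldolase joining it back to glycolysis. Monocytes and macrophages are known to raise glycolysis when activated. PKM2, the isoform of pyruvate kinase named in the labels, makes the last step of glycolysis.

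Libraries held 17744587 to 23864381 counts. All 14 monocytic markers listed for the check of the cell type had reads in every group, but they did not move together. With scramble ectosomes 5 were higher than control (TYROBP 2.71-fold, ITGAX 2.43-fold, CSF1R 2.39-fold, PTPRC 2.15-fold, SPI1 1.96-fold). The 7 lower ones were LYZ (11.5-fold), MPO (9.34-fold), FCGR1A (4.88-fold), CEBPA (3.83-fold), CD4 (3.005-fold), ITGAM (1.74-fold) and CD33 (1.36-fold). Of all rows tested, 34.6% were higher and 33.2% lower. The median of the markers on the log2 scale was -0.06. With PKM2-KD ectosomes 7 were higher and 4 lower than control, beside 27.0% and 26.7% of all rows. Set against scramble ectosomes, 10 were higher and 0 lower (median 0.80, CD14 14.8-fold, CSF1R 4.13-fold), beside 31.4% and 30.3% of all rows. The summed level of all 14, which the abundant members dominate, was 1280 to 1410, 1690 to 1730 and 2550 to 2700 CPM in the order control, scramble and PKM2-KD ectosomes. The part of these markers in the results below was not tested. Of 18 hepatocyte markers 10 had a row, and their summed CPM ran from 3.20 to 4.99, 3.74 to 5.24 and 5.63 to 6.97 in that order, albumin having 1 to 4, 2 to 3 and 7 to 10 reads per library, and TTR and HNF4A standing at 0 in all control and PKM2-KD libraries. These markers did not move together either. Group means in that order were 1.76, 2.28 and 4.82 CPM for APOA2, but 0.676, 0.252 and 0.0803 CPM for APOA1. Of 3 T-cell markers 1 had a row, with at most 0.181 CPM, and of 3 B-cell markers 2 had, with 7.40 to 13.5 CPM summed over both. Control replicate 3 stood apart: a chi-square over genes, divided by its degrees of freedom, was 46.4 and 43.6 against the other controls, which gave 5 between themselves. It was the lowest control for 23 of the 34 genes and the highest for 8, and the median of the tested ones lay -0.20 (log2) from the mean of the other controls, where all rows tested lay at -0.01.

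With PKM2-KD ectosomes THP-1 cells carried more transcript of 14 of the 16 glycolytic enzymes of the set than with scramble ectosomes, while PGD, TKT and TALDO1 of the pentose phosphate pathway were lower. Scramble ectosomes, set against control, went with higher glucose carriers, PFKFB3, lactate carriers, LDHA, PGD, TKT and TALDO1. In that comparison PFKFB2, LDHB, RPIA, RPE, PGLS and FBP1 were lower, while the glycolytic enzymes went both ways or did not pass the test. Of the 34 genes 33 had enough counts to be tested, TIGAR being the exception. Between the kinds of ectosomes 19 of the 33 were higher and 6 lower with the knockdown (edgeR quasi-likelihood test, Benjamini-Hochberg adjusted p under 0.05 over 18437 rows). Of all rows tested, 31.4% were higher and 30.3% lower in that comparison, 61.6% in all. The median log2 fold change of the 33 was 0.61, that of all rows 0.03. Of the 19, 11 were at least 2-fold higher, where 18.0% of all rows were, and 2 of the 6 were at least 2-fold lower, where 10.8% were. In 29 of the 33 every library of one group lay above every library of the other, which held for 74.5% of all rows. In a bulk library a change in every cell and a change in the share of cells with the transcript cannot be told apart.

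Against control, 13 of the 33 were higher and 10 lower with scramble ectosomes, beside 34.6% and 33.2% of all rows (67.8% in all), and the median log2 fold change was 0.17 beside -0.01 for all rows. At least 2-fold differences were seen for 7 higher and 4 lower genes, which 18.1% and 18.5% of all rows showed. With PKM2-KD ectosomes 23 were higher and 7 lower than in control cells, beside 27.0% and 26.7% of all rows (53.7% in all), and the median was 0.98 beside -0.01. At least 2-fold were 16 and 4 of these, and 14.5% and 7.22% of all rows. The libraries of the groups lay apart for 21 of the 33 in the first and 30 in the second comparison, which was so for 71.3% and 60.5% of all rows. Both of these comparisons use the same controls. Without control replicate 3 the counts were 14 and 13, and 24 and 7. Scaling by library totals alone put the median of all rows at -0.21 for scramble ectosomes against control and at 0.20 between the kinds of ectosomes. It took the share of calls that were higher from 51.0% to 40.2% and from 50.9% to 61.9%, and the counts for these genes to 11 and 13, and to 22 and 6.

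Added up, the 34 genes took 0.907%, 0.886% and 0.707% of the counts of the control libraries, 0.971%, 1.06% and 1.05% with scramble ectosomes and 1.46%, 1.53% and 1.60% with PKM2-KD ectosomes. The 3 groups did not overlap, and the mean with PKM2-KD ectosomes was 1.49 times that with scramble ectosomes and 1.84 times that of control. Each of the 3 comparisons gave p = 0.1 in a two-sided exact permutation test, the smallest p that 3 libraries against 3 allow. Without GAPDH these ratios were 1.5 and 1.95. The shares rest on library totals, under which the median of all rows lay at 0.20 (log2) between the kinds of ectosomes. For ENO1 alone the ratio of shares between these was 1.28, beside 1.14-fold with TMM scaling.

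**Figure D1:**
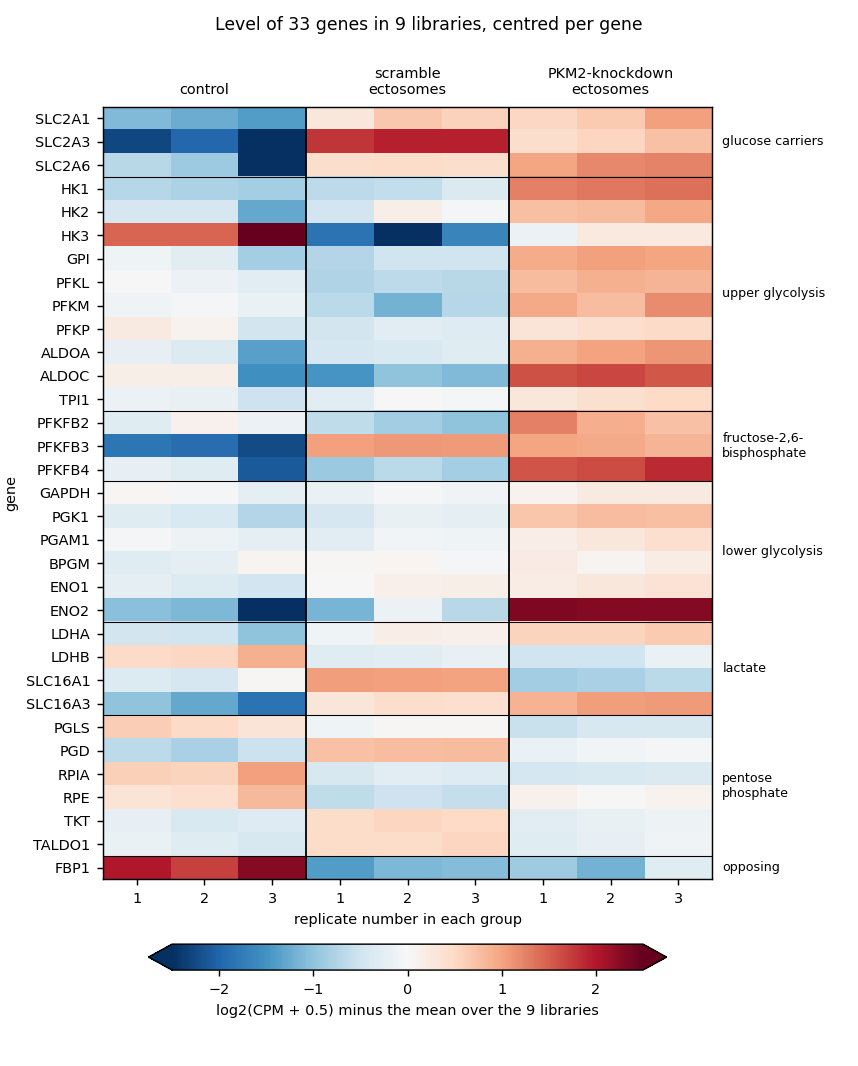
Each row is 1 of the 33 tested genes, in order of pathway step, and each column 1 of the 9 libraries by group and replicate number. Colour is log2(CPM + 0.5) minus the gene's mean over the 9 libraries, red above and blue below it. Most rows from HK1 to SLC16A3 are reddest in the 3 PKM2-KD libraries, PGD, TKT, TALDO1 and SLC16A1 are reddest in the 3 scramble libraries, and control replicate 3 is paler or bluer than the other controls in many rows.

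Promoter sequences, 250 bases before to 50 after a transcript start, were looked up in RefSeq (GRCh38.p14) and found for 31 of the 34 genes. The first entry of a symbol was used, and other starts of the same gene were not searched. For each promoter printed here the start used lies inside the span of its gene, which is given further below. The core of the hypoxia response element (ACGTG or GCGTG on either strand), the letters bound by the hypoxia-inducible factors that are known to drive many glycolytic genes, was searched in each. It was present in 20 of the 31 (64.5%), in 61.9% of the 11329 promoters of tested genes and in 48.4% of all 27305. The promoters below belong to 3 of the 4 genes with the largest rise between the kinds of ectosomes (ENO2, ALDOC and PFKFB4; HK3, the other, holds no match), to LDHA, with the most matches of the core, and to PGD, which was lower with the knockdown and also holds the core. Capitals mark the core on either strand, overlapping or adjoining matches being run together.
ALDOC: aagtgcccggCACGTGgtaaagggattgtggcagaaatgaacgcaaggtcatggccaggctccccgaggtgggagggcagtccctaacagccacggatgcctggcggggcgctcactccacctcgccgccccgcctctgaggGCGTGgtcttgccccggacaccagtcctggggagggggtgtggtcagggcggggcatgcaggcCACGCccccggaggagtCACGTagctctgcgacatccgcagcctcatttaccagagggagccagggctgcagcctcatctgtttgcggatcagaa
ENO2: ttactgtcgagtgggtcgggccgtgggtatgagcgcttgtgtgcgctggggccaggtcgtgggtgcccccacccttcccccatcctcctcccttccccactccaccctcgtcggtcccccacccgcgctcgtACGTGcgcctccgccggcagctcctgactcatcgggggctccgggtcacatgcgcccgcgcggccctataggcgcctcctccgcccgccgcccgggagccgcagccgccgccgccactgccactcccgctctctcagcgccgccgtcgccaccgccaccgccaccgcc
PFKFB4: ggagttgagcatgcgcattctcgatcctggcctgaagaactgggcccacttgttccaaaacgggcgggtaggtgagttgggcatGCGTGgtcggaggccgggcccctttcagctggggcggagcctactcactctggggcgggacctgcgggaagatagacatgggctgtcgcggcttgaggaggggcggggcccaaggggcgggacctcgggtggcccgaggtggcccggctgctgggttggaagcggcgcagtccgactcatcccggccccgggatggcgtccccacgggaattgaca
LDHA: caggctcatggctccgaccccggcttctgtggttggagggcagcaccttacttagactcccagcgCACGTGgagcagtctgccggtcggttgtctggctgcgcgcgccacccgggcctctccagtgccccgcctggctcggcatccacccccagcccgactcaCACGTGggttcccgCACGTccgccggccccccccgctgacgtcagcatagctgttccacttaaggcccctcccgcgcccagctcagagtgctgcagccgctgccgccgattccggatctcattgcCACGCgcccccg
PGD: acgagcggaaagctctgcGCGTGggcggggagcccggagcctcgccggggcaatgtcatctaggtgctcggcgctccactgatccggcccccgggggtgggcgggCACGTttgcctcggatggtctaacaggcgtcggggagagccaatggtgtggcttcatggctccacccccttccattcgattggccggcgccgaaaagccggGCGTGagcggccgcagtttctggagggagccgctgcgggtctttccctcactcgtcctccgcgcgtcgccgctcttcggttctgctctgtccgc
They lie at chr17:28576846-28577145, minus strand (ALDOC), chr12:6914330-6914629, plus strand (ENO2), chr3:48556754-48557053, minus strand (PFKFB4), chr11:18394313-18394612, plus strand (LDHA) and chr1:10398814-10399113, plus strand (PGD), each printed along the strand of its gene. The core was matched at 5 places for ALDOC, 6 for LDHA, 3 for PGD and 1 each for ENO2 and PFKFB4. The E-box CACGTG, which contains ACGTG and gives a match of the core on each strand, was found in 3 of the 31 promoters (ALDOC, GAPDH and LDHA; 9.68%), in 9.89% of those of tested genes and in 7.43% of all. The GC box GGGCGG was found in 25 (80.6%, beside 67.7% and 44.6%) and the STAT element TTCNNNGAA in RPIA alone (3.23%, beside 6.42% and 7.88%). A match is a string of letters and not a measured binding site.

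All 3 glucose carriers were higher than control with either kind of ectosome, where 34.6% of all rows were higher with scramble and 27.0% with PKM2-KD ectosomes. SLC2A1, which encodes the widespread carrier GLUT1, stood at 225, 203 and 183 CPM in the control libraries, 589, 769 and 719 CPM under scramble and 685, 754 and 981 CPM under PKM2-KD ectosomes. The ectosome groups overlapped each other and both lay above control, 3.40-fold with scramble (adjusted p = 1.84e-06, log2 fold change 1.77 with SE 0.15) and 3.96-fold with PKM2-KD ectosomes (adjusted p = 2.06e-06). Between the kinds of ectosomes SLC2A1 did not pass the threshold (adjusted p = 0.208, log2 fold change 0.22 with SE 0.15), but did in a fit of only those 6 libraries (adjusted p = 0.0433). SLC2A3 (chromosome 12, 7919230 to 7936275, minus strand), which encodes the high-affinity carrier GLUT3, stood at 4.90, 6.24 and 2.37 CPM in the control libraries, 89.99, 101 and 99.6 CPM under scramble and 35.1, 37.6 and 43.05 CPM under PKM2-KD ectosomes. It had the largest rise of the 33 genes against control with scramble ectosomes, 21.1-fold (adjusted p = 7.28e-08, log2 fold change 4.40 with SE 0.24), and with PKM2-KD ectosomes it was 8.43-fold above control (adjusted p = 2.19e-06) and 2.51-fold below scramble (adjusted p = 0.000204, log2 fold change -1.33 with SE 0.20). The 3 groups did not overlap. Its close paralog SLC2A14, with which it could exchange reads, stood at 2.27, 0.0630 and 1.05 CPM as group means in the same order. SLC2A6, which encodes the lysosomal carrier GLUT6, stood at 52.6, 45.2 and 8.998 CPM in the control libraries, 116, 117 and 116 CPM under scramble and 171, 196 and 202 CPM under PKM2-KD ectosomes. Control replicate 3 lay far below its partners. SLC2A6 rose 3.26-fold with scramble ectosomes (adjusted p = 0.00506) and 5.32-fold with PKM2-KD ectosomes (adjusted p = 0.000971). Between the kinds of ectosomes the libraries did not overlap, and the call depended on the fit: adjusted p = 0.167 with the controls in the estimate of the spread and 3.7e-09 with those 6 libraries alone, at a log2 fold change of 0.70.

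The hexokinases, which trap glucose in the cell as glucose-6-phosphate, differed in how they moved. HK1, the housekeeping form, stood at 13.4, 12.6 and 12.1 CPM in the control libraries, 13.9, 14.3 and 17.01 CPM under scramble and 53.99, 56.1 and 58.5 CPM under PKM2-KD ectosomes. The difference between the first groups was small (1.19-fold with scramble ectosomes, adjusted p = 0.047, a call lost in 9 of 12 other settings). HK1 rose 3.72-fold with PKM2-KD against scramble ectosomes (adjusted p = 1.31e-07, log2 fold change 1.90 with SE 0.10). HK2, the form known to be induced by insulin, hypoxia and growth signals, stood at 66.2, 65.7 and 35.8 CPM in the control libraries, 62.8, 97.6 and 85.6 CPM under scramble and 148, 152 and 174 CPM under PKM2-KD ectosomes. It rose 1.93-fold between the kinds of ectosomes (adjusted p = 0.00329) and 2.82-fold from control (adjusted p = 0.000233). The libraries overlapped for the 1.46-fold difference of scramble ectosomes from control (adjusted p = 0.0454). That call was lost in 6 of 12 other settings (adjusted p up to 0.214), among them without scramble replicate 2 or 3 (adjusted p = 0.164 and 0.104). HK3 (chromosome 5, 176880869 to 176899332, minus strand), a hexokinase found mainly in myeloid cells, stood at 12.5, 12.5 and 32.1 CPM in the control libraries, 0.812, 0.316 and 1.01 CPM under scramble and 3.78, 5.11 and 5.09 CPM under PKM2-KD ectosomes. It fell 26.1-fold with scramble ectosomes (adjusted p = 6.87e-06, log2 fold change -4.70 with SE 0.47), or 17.1-fold without control replicate 3, which held the most. With PKM2-KD ectosomes HK3 was 6.40-fold above scramble (adjusted p = 0.000854, log2 fold change 2.68 with SE 0.50) and 4.07-fold below control (adjusted p = 0.00102), or 2.69-fold without that library.

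In these 9 libraries all 10 genes from hexokinase to triosephosphate isomerase were higher with PKM2-KD than with scramble ectosomes, 7 of them at least 2-fold. Among all rows tested 31.4% were higher in that comparison and 18.0% at least 2-fold higher. GPI, the isomerase of glucose-6-phosphate, stood at 291, 261 and 174 CPM in the control libraries, 188, 223 and 223 CPM under scramble and 594, 639 and 624 CPM under PKM2-KD ectosomes. PKM2-KD libraries lay above both other groups, 2.93-fold over scramble (adjusted p = 1.4e-05, log2 fold change 1.55 with SE 0.16) and 2.56-fold over control (adjusted p = 4.83e-05). Among the phosphofructokinases, PFKL, the liver form, stood at 464, 423 and 392 CPM in the control libraries, 279, 298 and 291 CPM under scramble and 811, 868 and 850 CPM under PKM2-KD ectosomes. The 3 groups did not overlap, scramble ectosomes lying 1.47-fold below control (adjusted p = 0.00012) and PKM2-KD ectosomes 2.91-fold above scramble (adjusted p = 1.63e-07, log2 fold change 1.54 with SE 0.08). PFKM, the muscle form, stood at 3.62, 3.79 and 3.48 CPM in the control libraries, 2.30, 1.47 and 2.20 CPM under scramble and 8.10, 7.08 and 9.59 CPM under PKM2-KD ectosomes. It kept that order at a low level (4.11-fold between the kinds of ectosomes, adjusted p = 7.48e-06). PFKP, the platelet form, had 282 ± 66.6 CPM in controls, 224 ± 13.3 CPM under scramble and 382 ± 22.1 CPM under PKM2-KD ectosomes, a rise of 1.70-fold between the kinds of ectosomes (adjusted p = 0.00108). Against control the 1.35-fold difference of PFKP passed (adjusted p = 0.029) and was lost without PKM2-KD replicate 2 or 3 (adjusted p = 0.0682 and 0.0864). Without control replicate 3, GPI and PFKP were lower with scramble ectosomes than in control (log2 fold changes -0.39 and -0.52, adjusted p = 0.000112 and 1.19e-06), and with it neither was called (adjusted p = 0.287 and 0.0669).

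The aldolases, which split fructose-1,6-bisphosphate, followed the same order in the 2 ectosome groups. ALDOC (chromosome 17, 28573115 to 28577264, minus strand), the brain form, whose promoter is shown above, stood at 102, 102 and 31.5 CPM in the control libraries, 32.9, 45.8 and 42.8 CPM under scramble and 281, 295 and 271 CPM under PKM2-KD ectosomes. Every PKM2-KD library exceeded every other library, 6.97-fold over scramble (adjusted p = 5.81e-05, log2 fold change 2.80 with SE 0.36) and 3.59-fold over control (adjusted p = 0.000995). The 1.94-fold lower level with scramble ectosomes than in control (adjusted p = 0.0276) was seen in control replicates 1 and 2, replicate 3 lying below all scramble libraries, and the call was lost without either of the former (adjusted p = 0.0962 and 0.104) and without scramble replicate 1 or 3 (0.102 and 0.0609). ALDOA, the muscle form and the main aldolase of most cells, stood at 23.8, 21.7 and 10.5 CPM in the control libraries, 20.7, 21.2 and 22.4 CPM under scramble and 51.9, 56.1 and 59.9 CPM under PKM2-KD ectosomes. It rose 2.61-fold between the kinds of ectosomes (adjusted p = 0.000325). Its counts are uncertain, because 42.3% of its exon bases in GENCODE release 29 lie also in the exons of AC093512.2 on the same strand, and reads in such bases may not be assigned to ALDOA. The overlapping gene itself had 150, 170 and 72 reads in the controls, 19, 15 and 22 with scramble and 109, 124 and 117 with PKM2-KD ectosomes. TPI1, triosephosphate isomerase, had 213 ± 29.5 CPM in controls, 239 ± 22.6 CPM under scramble and 340 ± 25.9 CPM under PKM2-KD ectosomes, a rise of 1.42-fold between the kinds of ectosomes (adjusted p = 0.00309).

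The 3 PFKFB enzymes, which set fructose-2,6-bisphosphate, split between the kinds of ectosomes. PFKFB3 (chromosome 10, 6144934 to 6254644, plus strand), the form whose kinase activity far outweighs its phosphatase activity, stood at 51.6, 47.8 and 38.3 CPM in the control libraries, 368, 386 and 382 CPM under scramble and 361, 349 and 327 CPM under PKM2-KD ectosomes. It rose to nearly the same level with both, 8.25-fold with scramble (adjusted p = 5.94e-09, log2 fold change 3.04 with SE 0.11) and 7.53-fold with PKM2-KD ectosomes (adjusted p = 1.93e-08). The difference between them was -0.13 on the log2 scale (SE 0.10, adjusted p = 0.289). PFKFB4 (chromosome 3, 48517684 to 48562015, minus strand), a form known to be induced by hypoxia, stood at 40.5, 38.1 and 10.6 CPM in the control libraries, 24.6, 29.4 and 25.9 CPM under scramble and 140, 147 and 173 CPM under PKM2-KD ectosomes. The PKM2-KD libraries were the high ones, 5.77-fold over scramble (adjusted p = 0.000145, log2 fold change 2.53 with SE 0.37) and 5.14-fold over control (adjusted p = 0.000283). For scramble ectosomes against control PFKFB4 missed the threshold (adjusted p = 0.697), the control range being set by replicate 3, and without that library PFKFB4 was lower with scramble ectosomes (log2 fold change -0.57, adjusted p = 2.89e-05). PFKFB2, the heart form, stood at 2.18, 3.06 and 2.48 CPM in the control libraries, 1.62, 1.32 and 1.15 CPM under scramble and 7.41, 5.72 and 4.98 CPM under PKM2-KD ectosomes. At these low levels it was 4.40-fold higher with the knockdown than with scramble ectosomes (adjusted p = 1.59e-05) and 1.89-fold lower with scramble ectosomes than in control (adjusted p = 0.00564).

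**Figure D2:**
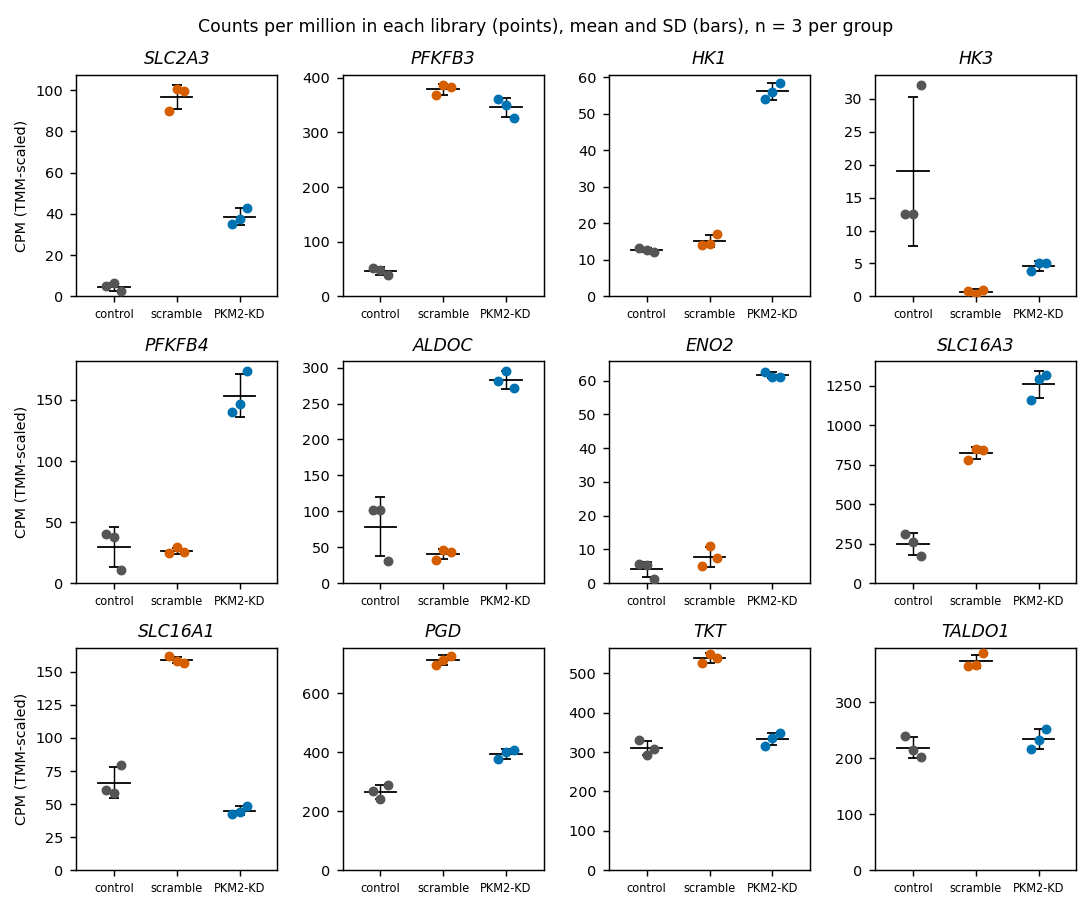
CPM of 12 of the genes (vertical axis, TMM-scaled, starting at 0) in control cells, with scramble ectosomes and with PKM2-KD ectosomes (PKM2-KD); points are libraries, the horizontal bar their mean and the error bar their SD. SLC2A3, SLC16A1, PGD, TKT and TALDO1 are highest with scramble ectosomes, HK1, PFKFB4, ALDOC, ENO2 and SLC16A3 with PKM2-KD ectosomes, PFKFB3 is high with both, and HK3 is highest in control cells, with 1 control at 32.1 CPM.

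GAPDH, ENO1, PGAM1 and PGK1, which turn triose phosphates toward pyruvate, had the highest levels per kilobase of exon of the set in control cells, while ENO2 and BPGM of the same segment were low. On that scale GAPDH and ENO1 led with 399 and 343 CPM per kilobase, ahead of PGAM1 (177) and PGK1 (120), and ENO2 and BPGM had 0.952 and 3.94 CPM per kilobase. With scramble ectosomes 1 of the 6 genes of this segment, ENO1, was called against control, beside 67.8% of all rows. PGK1, phosphoglycerate kinase, which makes the first ATP of the pathway, stood at 735, 697 and 547 CPM in the control libraries, 678, 794 and 777 CPM under scramble and 1460, 1533 and 1525 CPM under PKM2-KD ectosomes. It rose 2.01-fold between the kinds of ectosomes (adjusted p = 2.5e-05, log2 fold change 1.01 with SE 0.11), while scramble and control overlapped (adjusted p = 0.164). GAPDH, often used as a reference gene, had 1190 ± 101 CPM in controls, 1175 ± 48.8 CPM under scramble and 1429 ± 82.7 CPM under PKM2-KD ectosomes. It was 1.22-fold higher with the knockdown than with scramble ectosomes (adjusted p = 0.0154), a call lost without scramble replicate 1 or PKM2-KD replicate 2 (adjusted p = 0.0718 and 0.0594). Phosphoglycerate mutase, PGAM1, had 456 ± 29.8 CPM in controls, 453 ± 31.2 CPM under scramble and 614 ± 51.7 CPM under PKM2-KD ectosomes, 1.35-fold higher with the knockdown (adjusted p = 0.00179).

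ENO1, the common enolase, had 1809 ± 151 CPM in controls, 2463 ± 142 CPM under scramble and 2804 ± 168 CPM under PKM2-KD ectosomes. It rose 1.36-fold with scramble ectosomes (adjusted p = 0.00114) and 1.55-fold with PKM2-KD ectosomes (adjusted p = 0.000172), and the 1.14-fold difference between these, with libraries that did not overlap, missed the threshold (adjusted p = 0.0915) but passed it in the fit of only those 6 libraries (adjusted p = 0.004). ENO2 (chromosome 12, 6913745 to 6923698, plus strand), the enolase named for neurons, stood at 5.59, 5.25 and 1.38 CPM in the control libraries, 5.10, 10.95 and 7.33 CPM under scramble and 62.7, 61.2 and 61.1 CPM under PKM2-KD ectosomes. It was the gene of the set with the largest difference between the kinds of ectosomes, 7.95-fold (adjusted p = 3.51e-05, log2 fold change 2.99 with SE 0.35), and with the largest rise from control with PKM2-KD ectosomes, 14.9-fold (adjusted p = 1.2e-05). Its control and scramble libraries overlapped (adjusted p = 0.0568), and this comparison passed the threshold when any of the controls or scramble replicate 1 was left out (adjusted p from 0.0308 to 0.0482). BPGM, which makes 2,3-bisphosphoglycerate, had 9.999 ± 1.54 CPM in controls, 11.2 ± 0.414 CPM under scramble and 12.4 ± 0.667 CPM under PKM2-KD ectosomes and passed the threshold in none of the 3 comparisons, with adjusted p = 0.268, 0.334 and 0.0592. Without control replicate 3 it was higher than control with either kind of ectosome (adjusted p = 0.0263 and 0.00242).

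PKM, pyruvate kinase, stood outside the 34 genes as the enzyme named in the labels, with both isoforms counted together. It stood at 789, 734 and 428 CPM in the control libraries, 3376, 3573 and 3553 CPM under scramble and 2181, 2304 and 2454 CPM under PKM2-KD ectosomes, the highest libraries being those given scramble ectosomes. PKM rose 5.38-fold and 3.56-fold from control (adjusted p = 1.03e-06 and 1.7e-05) and was 1.51-fold lower with PKM2-KD than with scramble ectosomes (adjusted p = 0.0145).

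LDHA and SLC16A3 were highest with PKM2-KD ectosomes, SLC16A1 with scramble ectosomes and LDHB in control cells. LDHA (chromosome 11, 18394388 to 18408425, plus strand), the subunit of lactate dehydrogenase that favours lactate formation, stood at 827, 808 and 566 CPM in the control libraries, 1064, 1271 and 1242 CPM under scramble and 1673, 1679 and 1801 CPM under PKM2-KD ectosomes. The groups did not overlap, LDHA rising 1.62-fold with scramble ectosomes (adjusted p = 0.000905) and a further 1.44-fold with the knockdown (adjusted p = 0.00618, log2 fold change 0.53 with SE 0.14). LDHB, the other subunit, stood at 27.2, 27.98 and 36.4 CPM in the control libraries, 15.5, 15.8 and 16.97 CPM under scramble and 13.5, 13.6 and 17.2 CPM under PKM2-KD ectosomes. It was lower than control with either kind of ectosome (1.89-fold, adjusted p = 0.000148 and 2.07-fold, adjusted p = 0.000109), and its counts are uncertain, as 33.4% of its exon bases overlap AC010197.2 on the same strand. SLC16A3 (chromosome 17, 82228397 to 82261129, plus strand), which encodes the lactate exporter MCT4, stood at 315, 260 and 175 CPM in the control libraries, 778, 851 and 842 CPM under scramble and 1159, 1297 and 1321 CPM under PKM2-KD ectosomes. It rose 3.30-fold with scramble ectosomes (adjusted p = 6.9e-06, log2 fold change 1.72 with SE 0.17) and with PKM2-KD ectosomes exceeded control 5.04-fold (adjusted p = 2.04e-06) and scramble 1.53-fold (adjusted p = 0.00887). SLC16A1 (chromosome 1, 112911847 to 112957013, minus strand), which encodes the carrier MCT1, stood at 60.9, 58.2 and 79.5 CPM in the control libraries, 162, 158 and 157 CPM under scramble and 42.6, 43.98 and 48.6 CPM under PKM2-KD ectosomes. The groups again did not overlap, but in another order: SLC16A1 rose 2.40-fold with scramble ectosomes (adjusted p = 2.83e-06, log2 fold change 1.27 with SE 0.11) and with PKM2-KD ectosomes was 3.53-fold below scramble (adjusted p = 4.61e-07, log2 fold change -1.82 with SE 0.12) and 1.47-fold below control (adjusted p = 0.00188).

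Of the 6 genes of the pentose phosphate pathway, with scramble ectosomes 3 rose and 3 fell against control, and with PKM2-KD ectosomes 4 were lower and 1 higher than with scramble, where 34.6% and 33.2% of all rows rose and fell, and 30.3% and 31.4% were lower and higher. PGD (chromosome 1, 10398592 to 10420144, plus strand), 6-phosphogluconate dehydrogenase, which yields NADPH, stood at 269, 241 and 289 CPM in the control libraries, 696, 715 and 728 CPM under scramble and 377, 402 and 409 CPM under PKM2-KD ectosomes. It rose 2.68-fold with scramble ectosomes (adjusted p = 1.28e-07, log2 fold change 1.42 with SE 0.08) and was 1.80-fold lower with PKM2-KD than with scramble ectosomes (adjusted p = 9.05e-06, log2 fold change -0.85 with SE 0.08), a level 1.49-fold above control (adjusted p = 0.000206). TKT, transketolase, had 311 ± 18.8 CPM in controls, 539 ± 12.2 CPM under scramble and 333 ± 15.9 CPM under PKM2-KD ectosomes. TALDO1, transaldolase, had 219 ± 18.4 CPM in controls, 373 ± 12.4 CPM under scramble and 234 ± 17.8 CPM under PKM2-KD ectosomes. Both rose with scramble ectosomes (1.74-fold and 1.70-fold, adjusted p = 4.93e-06 and 1.89e-05) and were lower with the knockdown than with scramble (1.62-fold and 1.60-fold, adjusted p = 2.05e-05 and 7.06e-05). Against control the PKM2-KD libraries overlapped for both, with log2 fold changes of 0.10 (SE 0.08) and 0.09 (SE 0.09).

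RPIA, RPE and PGLS, the remaining enzymes of the pathway in the set, were highest in control cells. RPIA, which makes ribose-5-phosphate, stood at 30.4, 29.4 and 41.3 CPM in the control libraries, 15.03, 16.4 and 15.9 CPM under scramble and 14.6, 15.2 and 15.3 CPM under PKM2-KD ectosomes. Both ectosome groups lay below control, 2.13-fold (adjusted p = 2.55e-05, log2 fold change -1.09 with SE 0.13) and 2.24-fold (adjusted p = 3.38e-05), and did not pass the threshold against each other (log2 fold change -0.07, SE 0.13). RPE, the epimerase that makes xylulose-5-phosphate, stood at 83.6, 87.9 and 117 CPM in the control libraries, 42.1, 45.8 and 43.7 CPM under scramble and 70.6, 65.3 and 69.6 CPM under PKM2-KD ectosomes. It fell 2.19-fold with scramble ectosomes (adjusted p = 8.84e-06, log2 fold change -1.13 with SE 0.12), and with PKM2-KD ectosomes it was 1.56-fold above scramble (adjusted p = 0.000718) and 1.40-fold below control (adjusted p = 0.00461). Of its exon bases 23.8% overlap those of another gene, KANSL1L, on the opposite strand, and the counting is not stated to use strand. PGLS, which opens the lactone made in the first step, had 73.8 ± 7.47 CPM in controls, 52.3 ± 3.02 CPM under scramble and 38.4 ± 2.27 CPM under PKM2-KD ectosomes. It fell 1.41-fold with scramble ectosomes and was 1.36-fold lower again with the knockdown (adjusted p = 0.000615 and 0.00175).

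The other two enzymes work against glycolysis. FBP1 (chromosome 9, 94603133 to 94640249, minus strand), fructose-1,6-bisphosphatase, which reverses the phosphofructokinase step in gluconeogenesis, stood at 6.13, 4.95 and 7.51 CPM in the control libraries, 0.135, 0.263 and 0.288 CPM under scramble and 0.393, 0.234 and 0.839 CPM under PKM2-KD ectosomes. The values came from 115, 115 and 136 reads in the controls, 3, 5 and 6 with scramble and 8, 5 and 16 with PKM2-KD ectosomes, and 16.3% of its exon bases overlap PCAT7 on the opposite strand. FBP1 fell 26.6-fold with scramble ectosomes, much as HK3 did (adjusted p = 1.81e-06, log2 fold change -4.73 with SE 0.40), and was 12.7-fold below control with PKM2-KD ectosomes (adjusted p = 1.22e-05), or 19.4-fold without PKM2-KD replicate 3. The kinds of ectosomes overlapped (adjusted p = 0.109), though the call was reached without PKM2-KD replicate 2 (adjusted p = 0.0378). TIGAR, a phosphatase of fructose-2,6-bisphosphate, had 3, 1 and 1 reads in the controls, 13, 6 and 10 with scramble and 3, 1 and 7 with PKM2-KD ectosomes. That was too few for the test, and 42.6% of its exon bases overlap AC008012.1 on the same strand.

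**Figure D3:**
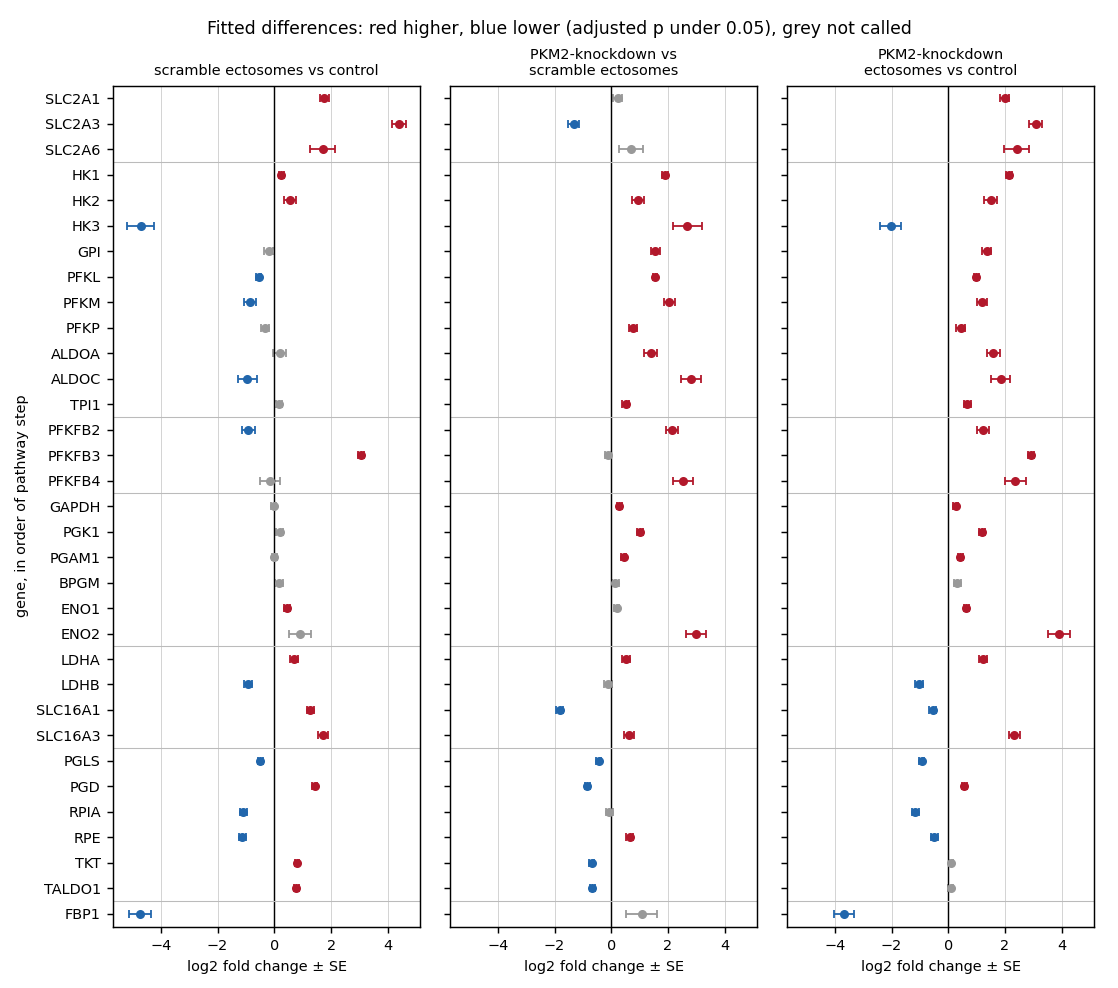
Log2 fold change (horizontal axis, points) with its SE (bars) of the 33 tested genes, in order of pathway step, in the 3 comparisons. Red is higher and blue lower at an adjusted p under 0.05, and grey did not pass. In the middle panel the block from HK1 to TPI1 is red throughout, with ENO2 and ALDOC farthest right at 2.99 and 2.80, while SLC16A1 (-1.82), SLC2A3 (-1.33), PGD (-0.85), TKT, TALDO1 and PGLS lie to the left. The left and right panels share their control libraries.

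Ratios of 2 genes within a library do not depend on how libraries are scaled. For 12 pairs of isoenzymes, carriers or branch enzymes the log2 ratio of counts was compared in the 3 comparisons, 36 tests in all, by two-sided exact permutation tests whose smallest p is 0.1 (0.15 after Benjamini-Hochberg adjustment over the 36), so none could pass 0.05. These ratios also carry the genes' lengths, and only their change between groups is read. PFKFB3 over PFKFB4 stood at 0.84 ± 0.87 in control cells, 3.83 ± 0.10 with scramble and 1.18 ± 0.23 with PKM2-KD ectosomes on the log2 scale. The 2 ectosome groups differed by -2.66 with no overlap (exact p = 0.1). SLC16A3 over SLC16A1 stood at 1.89 ± 0.66, 2.37 ± 0.09 and 4.80 ± 0.07, a difference of 2.43 between the kinds of ectosomes (exact p = 0.1). GPI over PGD, glycolysis against the oxidative branch, stood at -0.17 ± 0.49, -1.76 ± 0.12 and 0.65 ± 0.03. It was -1.59 with scramble ectosomes relative to control and 2.41 higher with the knockdown than with scramble, and no groups overlapped (exact p = 0.1 each).

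Other pairs moved as well. ENO2 over ENO1 was 2.86 higher with the knockdown than with scramble ectosomes and 3.52 higher than in control, and LDHA over LDHB 0.66 and 2.29 higher, without overlap (exact p = 0.1 each). HK2 over HK1 differed by -0.93 with the knockdown against scramble (exact p = 0.1), HK1 having the larger fold change, and PFKP over PFKL differed by -0.77 (exact p = 0.1). TALDO1 over TKT stood at -0.50 ± 0.08, -0.53 ± 0.05 and -0.51 ± 0.04, with differences of -0.02, 0.02 and -0.01 and exact p = 0.7, 0.8 and 0.9.

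**Figure D4:**
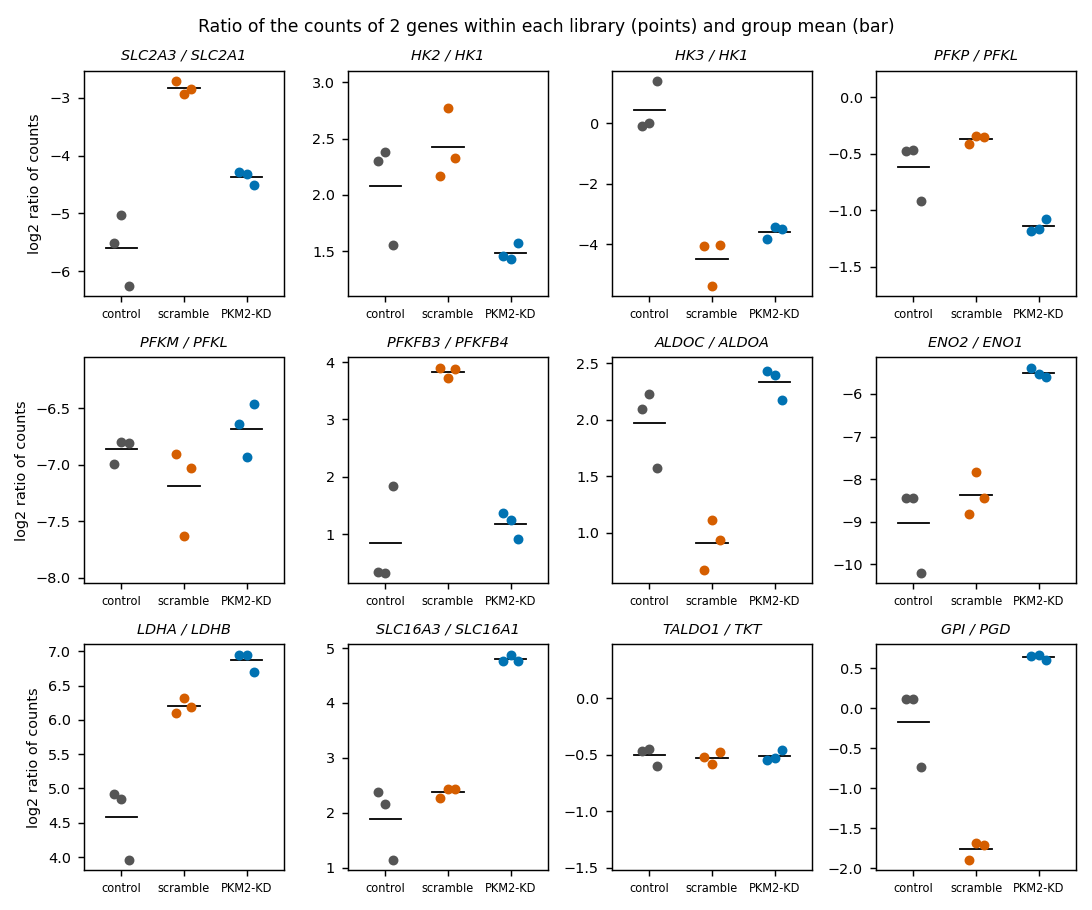
Log2 ratio of the counts of 2 genes within each library (vertical axis, each panel spanning at least 2 log2 units; points are libraries and bars the means of 3) for 12 pairs, in control cells, with scramble ectosomes and with PKM2-KD ectosomes (PKM2-KD). PFKFB3/PFKFB4 is highest with scramble ectosomes, ENO2/ENO1, LDHA/LDHB, SLC16A3/SLC16A1 and GPI/PGD with PKM2-KD ectosomes, and TALDO1/TKT stays near -0.5 in all 9 libraries.

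Genes next to the pathway, listed apart from the 34, gave other counts. Of 24 further glycolytic, glycogen and glycerol-phosphate enzymes 14 were tested. Of these 2 rose and 9 fell with scramble ectosomes, and 7 were higher and 2 lower with the knockdown than with scramble (medians -0.43 and 0.43, all rows -0.01 and 0.03). That is 78.6% and 64.3% called, the latter near the 61.6% of all rows, where 67.8% were called in the former. LDHD, the mitochondrial D-lactate dehydrogenase, had 9.56 ± 2.43 CPM in controls, 0.420 ± 0.0126 CPM under scramble and 6.70 ± 0.869 CPM under PKM2-KD ectosomes (22.5-fold, adjusted p = 1.17e-07, and 15.8-fold, adjusted p = 6.74e-07). GPD1L, a glycerol-3-phosphate dehydrogenase, was lowest with the knockdown, 2.83-fold below scramble (adjusted p = 1.48e-05). Of 11 further genes of pentose and ribose metabolism 9 were tested. With scramble ectosomes 1 of the 9 rose and 8 fell (median -0.95), 100% called beside 67.8% of all rows. With the knockdown 5 were higher and 2 lower than with scramble (median 0.74), 77.8% called beside 61.6% of all rows. Among the 9, DERA, deoxyribose-phosphate aldolase, and RBKS, ribokinase, fell 3.21-fold and 4.74-fold with scramble ectosomes and were 2.30-fold and 2.84-fold higher with the knockdown (adjusted p up to 2.21e-05).

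Of 15 genes for the entry of pyruvate into mitochondria all were tested, 2 rising and 8 falling with scramble ectosomes and 6 being higher and 3 lower with the knockdown than with scramble (medians -0.25 and 0.12). These shares called, 66.7% and 60%, are near the 67.8% and 61.6% of all rows. Of the 4 kinases that switch off pyruvate dehydrogenase 3 were among the 6: PDK1 stood at 37.3, 47.9 and 86.1 CPM and was 1.80-fold higher with the knockdown than with scramble ectosomes (adjusted p = 0.000689), PDK2 4.95-fold (adjusted p = 2.27e-05) and PDK3 2.99-fold (adjusted p = 5.69e-05). Against control, PDK2 was 6.37-fold lower with scramble ectosomes (adjusted p = 4.69e-06) and not called with PKM2-KD ectosomes (adjusted p = 0.187). PDK3 was 1.95-fold lower with scramble (adjusted p = 0.00149) and 1.53-fold higher with PKM2-KD ectosomes (adjusted p = 0.0186). PDK1 was not called with scramble (adjusted p = 0.0607) and was 2.31-fold higher with PKM2-KD ectosomes (adjusted p = 8.58e-05). PDK4, added here after its values were seen, was not called between the kinds of ectosomes (adjusted p = 0.711) and was 7.51-fold and 5.73-fold below control with scramble and PKM2-KD ectosomes (adjusted p = 0.00213 and 0.00543). PC, pyruvate carboxylase, was 2.69-fold higher with the knockdown than with scramble ectosomes (adjusted p = 2.4e-05). Of 15 further sugar and monocarboxylate carriers 12 were tested, 2 rising and 9 falling with scramble ectosomes and 6 being higher and 2 lower with the knockdown (medians -1.14 and 0.55). That is 91.7% and 66.7% called, beside 67.8% and 61.6% of all rows. SLC2A9, a urate carrier, and SLC16A7, which encodes MCT2, fell 3.82-fold and 2.49-fold with scramble ectosomes (adjusted p = 2.83e-07 and 3.6e-05).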

How the data were processed

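RNA of 9 THP-1 libraries was extracted with Trizol, 3 µg each, and made into NEBNext Ultra libraries read on a HiSeq, per the labels' protocols. Raw counts, not normalized, were deposited by the authors as 1 table with rows named by symbol. HISAT2 2.0.5, featureCounts 1.5.0-p3 and GRCh38 are named per the submitters' processing notes, while annotation, strand setting and filters are not given in the sources here. Counts were tested with edgeR 4.0.16 (R 4.3.3): filterByExpr by group left 18437 of 30000 rows, with at least 99.85% of each library's counts, TMM scaling, and 1 quasi-likelihood fit of all 9 libraries with group as the only term (6 residual degrees of freedom, two-sided, Benjamini-Hochberg over all rows). Each adjusted p is from this fit unless named otherwise. CPM was computed here from the deposited counts. SE is the absolute log2 fold change over the square root of F, an approximation. The script was tested on simulated data. Ratios of counts had a pseudocount of 0.5. Exon lengths, positions and overlaps are from GENCODE release 29 (GRCh38). DESeq2 1.42.0, other scalings, no filter, smaller fits, a replicate block and left-out libraries were tried. The genes and lists were chosen with earlier results of these data known. All 34 may be named, those differing at least 2-fold in a called comparison get values per library, and up to 4 genes of each other list are named by smallest p. The limit does not cover the cell type markers or the genes said to be added.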

Additional observations from a re-analysis of the deposited data

How the results depend on the processing

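The counts of genes higher and lower stayed within 1.5 times their reported values in all 13 alternatives of each comparison. They ran from 11 to 14 higher and 9 to 13 lower for scramble ectosomes against control, 18 to 22 and 6 between the kinds of ectosomes, and 21 to 24 and 7 for PKM2-KD ectosomes against control. With 1 library left out these were 11 to 14 and 9 to 13, 18 to 19 and 6, and 21 to 24 and 7. Of 396 fold changes refitted for scramble ectosomes against control 21 lost and 12 gained the call and 11 changed sign. Between the kinds of ectosomes 2 of 395 lost and 7 gained it and 3 changed sign, and for the remaining comparison 7 of 396 lost and 1 gained it. No called difference changed sign. With library totals alone the log2 fold change against control with scramble ectosomes turned for ALDOA (-0.0212), TPI1 (-0.0427), PGK1 (-0.0240) and BPGM (-0.0377), and that between the kinds of ectosomes for PFKFB3 (0.0433), LDHB (0.0462) and RPIA (0.106). Leaving out 1 library turned PFKFB4 (-0.566 to 0.109), GAPDH (-0.0847 to 0.0337), PGAM1 (-0.0577 to 0.0571) and ALDOA (-0.0881 to 0.393) for scramble ectosomes against control. The log2 ratio of TALDO1 to TKT ran with 1 library left out from -0.0717 to 0.00429, -0.00850 to 0.0447 and -0.0523 to 0.0236 in the comparisons of scramble ectosomes with control, of the kinds of ectosomes, and of PKM2-KD ectosomes with control. The cause of these changes was not tested.

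Replicate numbers showed no pairing of the libraries: deviations from the group mean of libraries with the same number correlated between -0.094 and 0.0669, and not every library correlated best with its own number. The check cannot say whether libraries of a number were handled together. Deviations from a mean of 3 libraries are tied to each other, and control replicate 3 set those of the controls. With the replicate number as a block the counts were 11 and 10, 19 and 6, and 23 and 7, HK1 (adjusted p = 0.0701) and HK2 (adjusted p = 0.0586) losing the call for scramble ectosomes against control. With 3 libraries a group, differences near the spread of the controls could not be resolved.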

Other observations

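Regulators of sugar metabolism and other sources of NADPH, 2 lists outside the 34 genes, were also read. Of 19 transcription factors and sensors 18 were tested, of which 8 rose and 8 fell with scramble ectosomes against control, and 10 were higher and 8 lower with PKM2-KD than with scramble ectosomes (edgeR; medians -0.15 and 0.30), where 34.6% and 33.2%, and 31.4% and 30.3%, of all rows did. HIF1A, a subunit of the hypoxia-inducible factor, stood at 92.6, 101 and 85.8 CPM in the controls, 335, 339 and 330 CPM with scramble and 188, 175 and 151 CPM with PKM2-KD ectosomes. Its transcript was 3.59-fold above control with scramble ectosomes (adjusted p = 6.11e-08) and 1.84-fold with PKM2-KD ectosomes (adjusted p = 2.9e-05). It was 1.95-fold lower with the knockdown than with scramble ectosomes (adjusted p = 1e-05). Any bearing of HIF1A or the other regulators on the 34 genes was not tested. EGLN1, a hydroxylase that marks that factor for decay, stood at 166, 230 and 99.9 CPM and was 2.30-fold lower with the knockdown (adjusted p = 1.12e-06). Of the other hydroxylases of its family, added after their values were seen, EGLN2 was 1.72-fold higher (adjusted p = 0.000167) and EGLN3, at under 1 CPM in all libraries, 4.61-fold higher (adjusted p = 0.0025). VHL rose 2.37-fold with scramble ectosomes (adjusted p = 2.12e-07) and was 1.75-fold lower with the knockdown (adjusted p = 8.51e-06). MYC had the reverse order, 4.36-fold lower with scramble ectosomes (adjusted p = 2.23e-07) and 1.58-fold higher with the knockdown than with scramble (adjusted p = 0.00129). With PKM2-KD ectosomes MYC remained 2.75-fold below control (adjusted p = 7.53e-06).

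Of 10 genes of other NADPH sources 9 were tested, 3 rising and 5 falling with scramble ectosomes and 2 being higher and 4 lower with the knockdown (medians -0.58 and -0.24). That is 88.9% and 66.7% called, beside 67.8% and 61.6% of all rows. ME1, the cytosolic malic enzyme, stood at 21.3, 21.95 and 7.18 CPM in the controls, 262, 269 and 273 CPM with scramble and 62.6, 58.7 and 62.4 CPM with PKM2-KD ectosomes. It rose 15.9-fold with scramble ectosomes (adjusted p = 1.08e-06) and was 4.38-fold lower with the knockdown (adjusted p = 8.85e-05), the order seen for PGD, TKT and TALDO1. MTHFD1, a cytosolic folate enzyme, had the reverse order, 140, 28.8 and 80.2 CPM, falling 4.85-fold with scramble ectosomes (adjusted p = 9.7e-09). Rows of pseudogenes named after a member held at most 1.75% of that member's counts over the 9 libraries, the highest share being that of TPI1.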
